A study of Mus musculus with 18 samples.

Results

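A set of 10 genes that mark resting, homeostatic astrocytes was followed across mouse thalamus: the water channel gene Aqp4, the bicarbonate cotransporter gene Slc4a4, the glutamate transporter genes Slc1a2 and Slc1a3, glutamine synthetase (Glul), the connexin genes Gja1 and Gjb6, and the metabolic enzyme genes Aldoc, Aldh1l1 and Acsbg1. They were taken by symbol from the deposited count table, which lists 50559 genes, and all 10 were found. All 10 were also among the 18452 genes that had enough counts to be tested. The 18 libraries were made from the thalamus of wild-type mice, 6 in each of 3 groups. Controls received saline, the model group received Coll IV, and the intervene group received Coll IV together with remodelin, an inhibitor of the acetyltransferase NAT10. The series is about thalamic haemorrhage, and no group received remodelin alone. The labels do not expand Coll IV, give no strain, age or time after treatment, and leave unstated whether each library came from its own animal. The p-values therefore measure only the spread between libraries, which may be technical.

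Astrocytes take up the glutamate that neurons release, convert it to glutamine, and move water, potassium and bicarbonate between the tissue and blood vessels. Their endfeet on vessels are rich in the Aqp4 water channel, and connexin gap junctions join them into a network through which ions and metabolites pass. Astrocytes near an injury enter reactive states in which cytoskeletal and inflammatory genes are raised, while genes of the resting state can be raised, lowered or kept.

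The libraries held 28481225 to 118461420 counts, and the 10 genes together took 0.539 to 0.750% of them. Libraries numbered 1 to 3 and 4 to 6 stood apart within the groups, a division that was found in these counts and is not given in the labels. The summed level of 10 thalamic neuron markers was 321 to 519 CPM (counts scaled to library size) in the 9 libraries numbered 1 to 3, and 132 to 146 in controls, 149 to 180 in model and 260 to 361 in intervene libraries numbered 4 to 6. For 10 markers of cortical and hippocampal pyramidal neurons the sums were 776 to 5414 CPM in libraries 1 to 3 and 3765 to 9439 in libraries 4 to 6. The 2 replicate sets are therefore given separately for each gene, and CPM values are scaled by TMM throughout. The p-values within a set, and those for the change of a difference between the sets, are not independent of this division.

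The glutamate transporter genes Slc1a2 and Slc1a3 had intervene minus control differences of opposite sign in libraries 4 to 6. These were -0.58 (edgeR adjusted p = 0.0159) and 0.34 (adjusted p = 0.152) on the log2 scale, so only Slc1a2 was under 0.05. In libraries 1 to 3 both signs were reversed (0.21 and -0.18), with adjusted p of 0.759 and 0.814. Sequence before a listed start of each gene is shown. The sequences are RefSeq's, on GRCm38.p6 (the deposited counts refer to GRCm39): Slc1a2 at chr2:102706188-102706355 on the plus strand and Slc1a3 at chr15:8710808-8711057 on the minus strand. The Slc1a3 window is the 250 bases before the gene's start. The Slc1a2 window lies within the gene, before an internal start that the table lists 48199 bases after the gene's first start, and it is printed up to the first exon that GENCODE vM21 annotates there (168 bases). Capitals mark matches on either strand to the NFI half-site TTGGC, the SOX core ACAAT or the STAT site TTCNNNGAA. These are motifs of factor families known in astrocytes, and no match overlaps another in these windows.
Slc1a2: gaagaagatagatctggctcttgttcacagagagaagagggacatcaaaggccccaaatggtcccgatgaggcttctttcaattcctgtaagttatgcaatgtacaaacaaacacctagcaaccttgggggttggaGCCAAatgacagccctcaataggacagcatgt
Slc1a3: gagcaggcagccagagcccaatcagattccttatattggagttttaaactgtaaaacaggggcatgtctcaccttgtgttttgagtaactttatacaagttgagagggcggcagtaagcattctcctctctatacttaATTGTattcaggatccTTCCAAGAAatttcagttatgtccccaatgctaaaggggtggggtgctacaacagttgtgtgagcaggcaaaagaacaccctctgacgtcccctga
The Slc1a2 stretch held 1 NFI half-site, and the Slc1a3 window held 1 SOX core and 1 STAT site. The search covered 11 windows of 250 bases for 9 of the 10 genes, and Aqp4 was left out of it. The NFI half-site was in 6 of these 11 windows and in 41.5% of 32851 windows of all genes. The SOX core was in 2 against 27.7%, and the STAT site in 3 (of Acsbg1, Aldoc and Slc1a3) against 7.02%. Such matches are a description of letters, and binding was not measured.

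Per unit of gene length, the enzymes of glutamine and glucose metabolism were the most abundant. This order depends on the lengths behind FPKM, from 5614 bases for Glul and 5746 for Aldoc to 18156 for Slc4a4 and 27070 for Slc1a2. In mean CPM, without length, Aldoc had 1528 and Slc1a2 1271. There Slc4a4 had 126, Aqp4 125, Gjb6 101 and Aldh1l1 72.0. Glul averaged 431 ± 45.3 FPKM (scaled by gene length and library total; SD, n = 18), Aldoc 265 ± 38.3 and Slc1a2 47.0 ± 12.1. Slc1a3 followed at 32.3 ± 7.08, Acsbg1 at 31.0 ± 5.40 and Gja1 at 29.4 ± 5.47, and their order was not fixed: Slc1a3 exceeded Acsbg1 in 8 of 18 libraries and Acsbg1 exceeded Gja1 in 9. Gjb6 at 16.9 ± 2.55, Aldh1l1 at 11.0 ± 1.99, Aqp4 at 10.4 ± 3.44 and Slc4a4 at 6.98 ± 1.64 FPKM were lowest. Aldh1l1 exceeded Aqp4 in 8 of 18 libraries, so this pair also had no fixed order, whereas Slc1a2 exceeded Slc1a3 in 17, Aqp4 exceeded Slc4a4 in 16, and every other neighbour in the order held its place in 18 of 18.

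**Figure D1:**
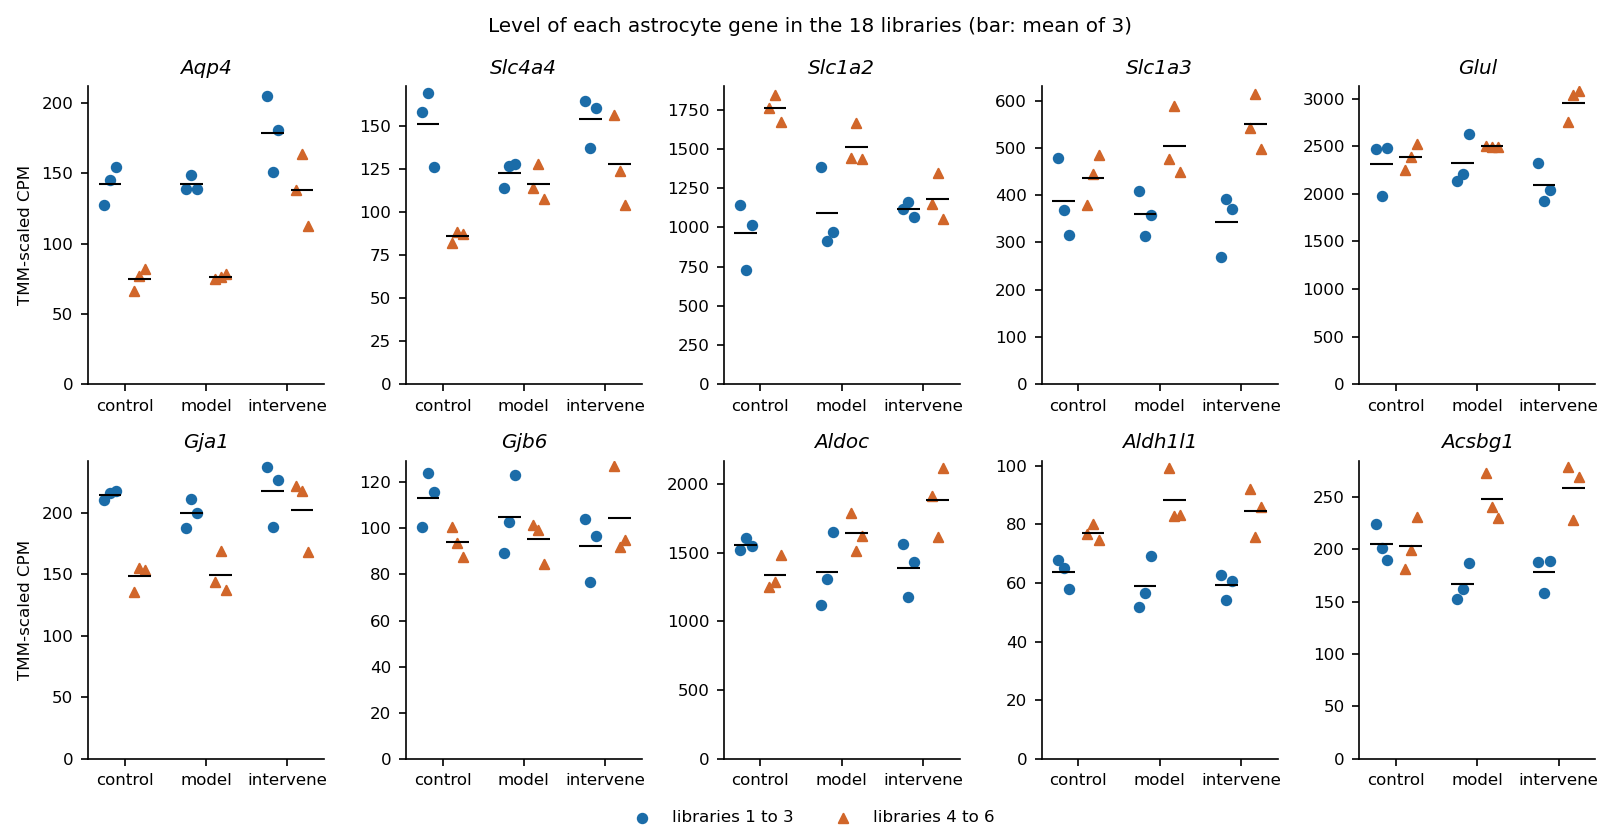
TMM-scaled CPM of the 10 astrocyte genes (linear axes from 0) in control, model and intervene libraries, with circles for libraries 1 to 3, triangles for libraries 4 to 6 and a bar at each mean of 3. In Aqp4 the triangles of control and model lie at 66.1 to 81.7 CPM, below all circles, while those of intervene lie at 112 to 163 CPM.

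Aqp4, the main water channel of the astrocyte endfoot, had the widest group difference of the 10 genes. In libraries 1, 2 and 3 it was at 128, 145 and 154 CPM in control, 139, 149 and 139 in model and 205, 151 and 181 in intervene. In libraries 4, 5 and 6 it was at 66.1, 76.7 and 81.7 CPM in control, 74.7, 76.5 and 78.4 in model and 138, 163 and 112 in intervene. Within each set, all intervene libraries lay above all model libraries, and in libraries 4 to 6 they lay above all controls too. Such separation was common: over all genes tested, 28.0% did not overlap between intervene and model in libraries 4 to 6. Between intervene and control it was 42.3% there, and between intervene and model in libraries 1 to 3 it was 8.52%. Control and model were indistinguishable in both sets, with log2 differences of 0.00 ± 0.13 (SE) and 0.03 ± 0.13.

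In libraries 4 to 6 Aqp4 rose in intervene by 0.85 ± 0.13 on the log2 scale against model, a fold of 1.80 (edgeR adjusted p = 0.00311), and by 0.88 ± 0.13 against control, a fold of 1.84 (adjusted p = 3.20e-04). Both calls held in each of 15 alternative runs, with adjusted p of 1.54e-06 to 0.0253 and 5.88e-08 to 0.00325. The differences in libraries 1 to 3 were 0.33 ± 0.13 against each group, and neither passed (adjusted p = 1.00 and 0.504). The size of the difference from control changed between the sets by 0.55 ± 0.18 (adjusted p = 0.0473), and that from model by 0.52 ± 0.18 (adjusted p = 0.170). The first of these calls was lost in 12 of 19 alternative runs, 8 of them runs that left out 1 library, with adjusted p up to 0.129. In a bulk library, fewer cells of a type and less RNA per cell cannot be told apart, for this gene and for the others.

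Slc4a4 encodes the electrogenic sodium bicarbonate cotransporter, which helps astrocytes set pH. It was at 158, 169 and 126 CPM in controls 1 to 3, at 114, 127 and 128 in model and at 165, 137 and 161 in intervene. In libraries 4 to 6 control had 82.1, 88.3 and 87.1 CPM, model 114, 128 and 108, and intervene 156, 124 and 104. Model thus lay above control without overlap in libraries 4 to 6, and below intervene without overlap in libraries 1 to 3. The shares of all genes without overlap in these comparisons were 19.8% and 8.52%.

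Against control, Slc4a4 rose in intervene 4 to 6 by 0.57 ± 0.14 on the log2 scale (edgeR adjusted p = 0.00571), a call lost in the limma fit of log2(FPKM + 1) (0.41, adjusted p = 0.0514). The model minus control difference was 0.44 ± 0.13 in libraries 4 to 6 (adjusted p = 0.285) and -0.30 ± 0.13 in libraries 1 to 3 (adjusted p = 0.833). These point in opposite directions, and the change of 0.74 ± 0.19 between them did not pass (adjusted p = 0.199). When only the 6 libraries compared were fitted, the difference in libraries 4 to 6 passed (0.44, adjusted p = 0.0362).

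Slc1a2 encodes GLT-1, the transporter that clears most glutamate in the forebrain, and it was the 1 member called lower in intervene than in control in libraries 4 to 6. Libraries 1, 2 and 3 held 1143, 730 and 1016 CPM in control, 1383, 911 and 970 in model and 1114, 1164 and 1066 in intervene, with the groups intermixed. Libraries 4, 5 and 6 held 1764, 1845 and 1674 CPM in control, 1443, 1663 and 1436 in model and 1147, 1343 and 1055 in intervene. There every control lay above every model library, and every model library above every intervene library. Taken pair by pair, 19.8% of all genes did not overlap between model and control, and 28.0% between intervene and model. Between intervene and control 42.3% did not.

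Slc1a2 fell in intervene 4 to 6 by 0.58 ± 0.16 on the log2 scale against control (edgeR adjusted p = 0.0159). Without control replicate 5 or intervene replicate 6 the difference was -0.54 and -0.50 and no longer passed (adjusted p = 0.0583 and 0.0626). Against model the difference was -0.36 ± 0.16 (adjusted p = 0.194), and between model and control -0.22 ± 0.16 (adjusted p = 0.678). Intervene minus control in libraries 1 to 3 was 0.21 ± 0.16 (adjusted p = 0.759), and the change between the sets, -0.79 ± 0.23, passed (adjusted p = 0.0262).

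Slc1a3, the second astrocytic glutamate transporter (GLAST), had higher values in intervene than in control in the same libraries, while intervene and model overlapped. Its intervene minus model difference there was 0.13 ± 0.17 on the log2 scale (edgeR adjusted p = 0.695). Libraries 4 to 6 held 378, 445 and 485 CPM in control, 477, 588 and 449 in model and 542, 614 and 498 in intervene, and libraries 1 to 3 of all groups held 269 to 479 CPM. The intervene minus control difference was 0.34 ± 0.17 in libraries 4 to 6 (edgeR adjusted p = 0.152) and -0.18 ± 0.17 in libraries 1 to 3 (adjusted p = 0.814), and neither passed. Glul, which turns the glutamate taken up into glutamine, was at 2250, 2391 and 2528 CPM in controls 4 to 6, 2503, 2497 and 2497 in model and 2760, 3036 and 3076 in intervene. All 3 intervene libraries were above the other 6, where 42.3% of all genes did not overlap with control and 28.0% with model. The Glul differences of 0.31 ± 0.11 against control and 0.24 ± 0.11 against model did not pass (adjusted p = 0.0513 and 0.200). In libraries 1 to 3 Glul ranged from 1925 to 2633 CPM, and intervene minus control was -0.14 ± 0.11 (adjusted p = 0.764).

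Within a library, the ratio of Slc1a2 to Slc1a3 in FPKM does not depend on how libraries are scaled. In controls it averaged 1.24 ± 0.309 in libraries 1 to 3 and 2.01 ± 0.300 in libraries 4 to 6 (SD, n = 3 each). Model libraries had 1.48 ± 0.170 and 1.49 ± 0.0921, and intervene libraries 1.64 ± 0.350 and 1.05 ± 0.0204. In libraries 4 to 6 the order control, model, intervene held without overlap, from 1.70 to 2.30 over 1.39 to 1.58 to 1.04 to 1.08. Among single genes 19.8% did not overlap between model and control there, 28.0% between intervene and model and 42.3% between intervene and control. The share over ratios of other genes was not counted. Over 6 libraries a group, mean log2 differences of this ratio were -0.08 (model minus control), -0.18 (intervene minus model) and -0.26 (intervene minus control). Their 2-sided exact permutation p were 0.690, 0.303 and 0.301 (adjusted over 6 comparisons of 2 ratios, 0.829, 0.455 and 0.455). The last was made of 0.41 in libraries 1 to 3 and -0.92 in libraries 4 to 6, opposite in sign.

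**Figure D2:**
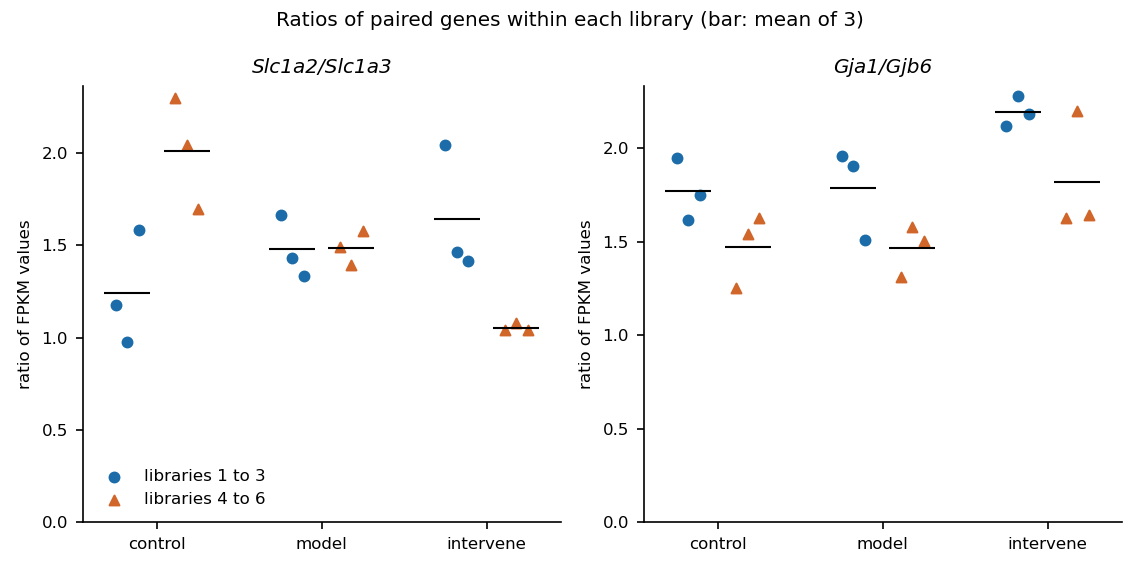
Ratio of FPKM values within each library (linear axes from 0) for the glutamate transporters Slc1a2 and Slc1a3 and for the connexins Gja1 and Gjb6, by group, with circles for libraries 1 to 3, triangles for libraries 4 to 6 and a bar at each mean of 3. The Slc1a2 to Slc1a3 ratio of libraries 4 to 6 steps down from a mean of 2.01 in control to 1.49 in model and 1.05 in intervene, and the Gja1 to Gjb6 ratio has its highest mean in intervene in both sets.

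Gja1 encodes connexin 43, the main gap junction protein of astrocytes. Controls 1 to 3 had 210, 216 and 218 CPM, model 188, 211 and 200, and intervene 237, 189 and 227. Controls 4 to 6 had 136, 155 and 153 CPM, model 144, 169 and 137, and intervene 222, 218 and 168. Intervene 4 and 5 were above all control and model libraries of that set, while intervene 6 lay just below model 5.

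In libraries 4 to 6 Gja1 rose in intervene by 0.44 ± 0.12 on the log2 scale against model and by 0.45 ± 0.12 against control (edgeR adjusted p = 0.0383 and 0.00994). The call against model was lost without model replicate 4 or 6 or intervene replicate 4 or 5 (adjusted p = 0.103 to 0.146). It was also lost in the FPKM fits (adjusted p = 0.117 and 0.114), with only the libraries compared (0.0893) and when scaled by library totals instead of TMM (0.103). The call against control was lost without control replicate 4 (adjusted p = 0.0540) and in the FPKM fits (0.0564 and 0.0535). In libraries 1 to 3 the difference from model was 0.12 ± 0.12, and the change between the sets, 0.31 ± 0.16, did not pass (adjusted p = 0.351).

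Gjb6, which encodes connexin 30, had no difference past the threshold in either set. It was at 101, 124 and 116 CPM in controls 1 to 3 and 101, 93.7 and 87.6 in controls 4 to 6, with model at 84.6 to 123 and intervene at 76.8 to 127 over 6 libraries each. Intervene minus control was -0.29 ± 0.15 in libraries 1 to 3 and 0.16 ± 0.15 in libraries 4 to 6 (edgeR adjusted p = 0.601 and 0.464). The Gja1 to Gjb6 ratio in FPKM averaged 1.77 ± 0.165, 1.79 ± 0.246 and 2.19 ± 0.0826 in control, model and intervene 1 to 3 and 1.47 ± 0.195, 1.46 ± 0.137 and 1.82 ± 0.326 in libraries 4 to 6 (SD, n = 3 each). Over 6 libraries a group, intervene minus model was 0.30 and intervene minus control 0.31 on the log2 scale, with nearly the same size in each set. Their 2-sided exact permutation p were 0.0476 and 0.0281, and neither passed after adjustment over the 6 comparisons (0.143 for both). Model minus control was 0.00 (exact permutation p = 0.983, adjusted p = 0.983).

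Of the metabolic enzymes, Aldoc, the brain aldolase of glycolysis, was at 1517, 1604 and 1549 CPM in controls 1 to 3, 1122, 1310 and 1649 in model and 1561, 1176 and 1429 in intervene. In libraries 4 to 6 it was at 1252, 1285 and 1480 in control, 1789, 1511 and 1624 in model and 1914, 1614 and 2120 in intervene. There all controls lay below the other 6 libraries, where 19.8% of all genes did not overlap between model and control. Between intervene and control 42.3% did not. Aldoc rose in intervene 4 to 6 against control by 0.49 ± 0.14 on the log2 scale (edgeR adjusted p = 0.0179), a call lost without control replicate 4 or 5 or intervene replicate 6 (adjusted p = 0.0692 to 0.0780). The difference in libraries 1 to 3 was -0.17 ± 0.14 (adjusted p = 0.785), and the change of 0.66 ± 0.20 between the sets passed (adjusted p = 0.0323).

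Acsbg1, a long-chain acyl-CoA synthetase, was at 224, 201 and 190 CPM in controls 1 to 3, 152, 162 and 187 in model and 188, 158 and 189 in intervene. Libraries 4 to 6 had 181, 199 and 230 CPM in control, 273, 240 and 230 in model and 278, 228 and 269 in intervene. The controls were thus the highest 3 in the first set and held the lowest 2 in the second. In the first set 9.93% of all genes did not overlap between model and control, and 13.7% between intervene and control. Acsbg1 rose in intervene 4 to 6 against control by 0.35 ± 0.12 on the log2 scale (edgeR adjusted p = 0.0404). That call was lost in 9 of 15 alternative runs, among them those without control replicate 4 or 5 and without intervene replicate 4 or 6 (adjusted p = 0.106 to 0.173 for these 4). In libraries 1 to 3 intervene minus control was -0.20 ± 0.12 (adjusted p = 0.663), and the change between the sets, 0.55 ± 0.17, passed (adjusted p = 0.0331). The model minus control differences, -0.30 ± 0.12 and 0.28 ± 0.12, also had opposite signs and did not pass (adjusted p = 0.825 and 0.442).

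Aldh1l1, the folate enzyme gene often used to label astrocytes, ranged from 51.7 to 69.0 CPM over the 9 libraries numbered 1 to 3 and from 74.5 to 99.3 over those numbered 4 to 6, without overlap. Within control, model and intervene, 52%, 37.9% and 31.6% of all genes tested did not overlap between the sets. The share over 9 against 9 libraries was not counted. Between groups Aldh1l1 had no difference past the threshold. Intervene minus control was -0.10 ± 0.11 in libraries 1 to 3 and 0.13 ± 0.11 in libraries 4 to 6 (edgeR adjusted p = 0.839 and 0.405).

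**Figure D3:**
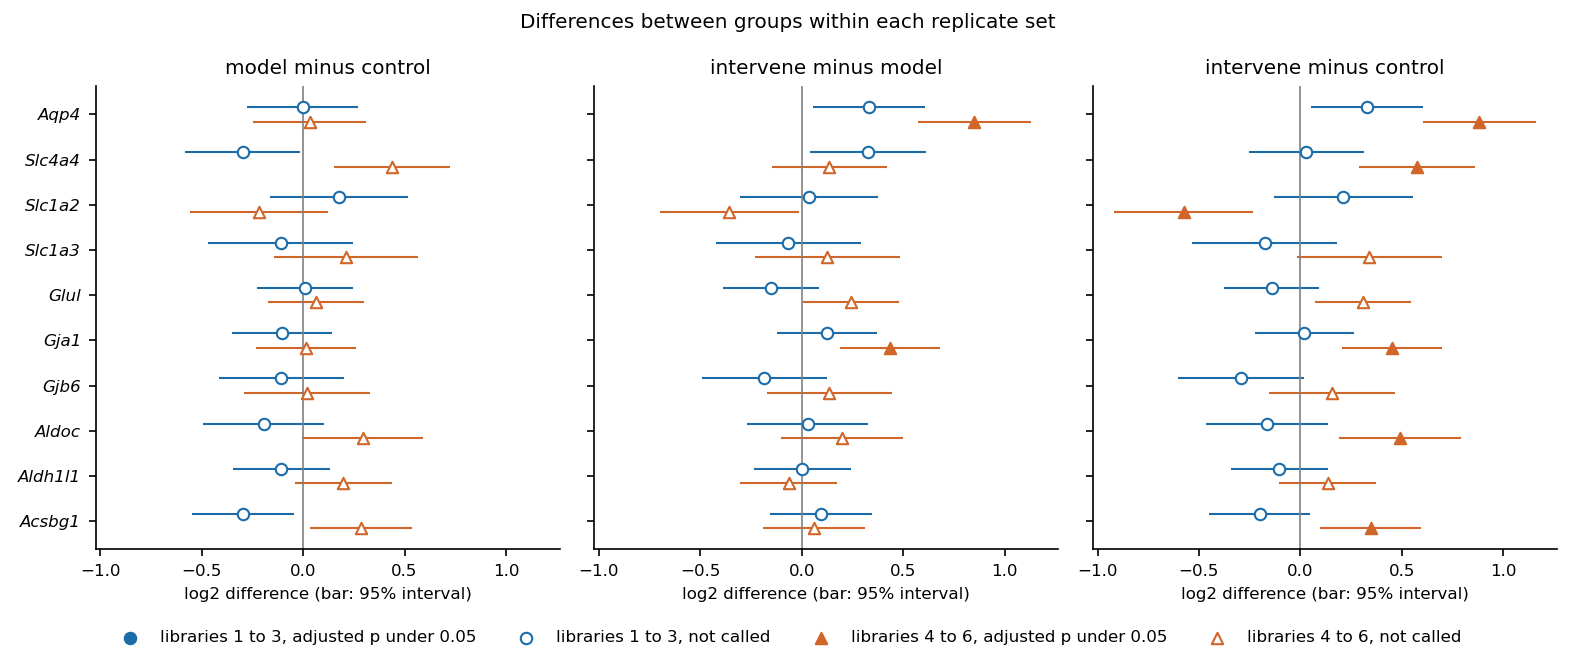
Fitted log2 differences of the 10 genes (points, with 95% intervals as bars) between groups, for libraries 1 to 3 (circles) and 4 to 6 (triangles), filled where the edgeR adjusted p was under 0.05. Filled symbols appear only in libraries 4 to 6: Aqp4 and Gja1 in intervene minus model, and Aqp4, Slc4a4, Gja1, Aldoc, Acsbg1 and, in the negative direction, Slc1a2 in intervene minus control.

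Counted over the family, 0 of the 10 genes passed in any of the 3 comparisons of 6 against 6 libraries, where edgeR called 0% of the 18452 genes. At an unadjusted p under 0.05 stood 0 members in model minus control and 1, Aqp4, in each of the other 2 comparisons. Of all 18452 genes, 310, 531 and 1551 did so in model minus control, intervene minus model and intervene minus control. DESeq2 and limma-voom called 0 members in each comparison. Model minus control ran from -0.07 (Slc1a2) to 0.07 (Slc1a3), with a median of 0.02. For Aqp4 intervene minus model was 0.53 ± 0.24 (edgeR adjusted p = 0.988) and intervene minus control 0.54 ± 0.24 (adjusted p = 0.572). With the replicate set as a term in the fit, 66 genes were called in intervene minus control, Aqp4 among them (0.61, adjusted p = 0.0314). In intervene minus control Gja1 was 0.21, Slc4a4 0.25 and Slc1a2 -0.25, and in intervene minus model 0.27, 0.24 and -0.18.

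Within libraries 1 to 3 likewise 0 members were called in any comparison, where edgeR called 0% of genes. In model minus control, intervene minus model and intervene minus control, 2, 2 and 1 members had an unadjusted p under 0.05. Of all 18452 genes, 1075, 700 and 1579 had such a p in the same comparisons. DESeq2 and limma-voom also called 0 members in libraries 1 to 3. The median member difference was -0.11 for model minus control, and 2 of 10 were positive.

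Within libraries 4 to 6, model minus control again had 0 members called and 0% of genes, and 0 members by DESeq2 and limma-voom. There 2 members (Slc4a4 and Acsbg1) had an unadjusted p under 0.05, beside 1876 of all 18452 genes. With the replicate number as a block 87 genes were called there, and 0 members. In intervene minus model 2 of 10 members were higher and 0 lower, where 3.66% of all genes were higher and 2.05% lower. In intervene minus control 5 of 10 were higher and 1 lower, where 14.7% of genes were higher and 11.2% lower. The members' median difference was 0.14 and 0.34 on the log2 scale, against 0.00 over all genes in both. The 2 comparisons share the intervene libraries and are not independent. Their p-values, like those of every comparison within a set, also rest on a division found in these counts. Without control replicate 4, control replicate 5 or intervene replicate 6, 3 members were called in intervene minus control in place of 6. In intervene minus model 1 member, Aqp4, was called without model replicate 4 or 6 or intervene replicate 4 or 5.

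The change of a group difference between the replicate sets was also put to the edgeR test. The sets were found in these counts, so its p-values are not independent of the division and serve as a description. In model minus control it was called for 0 members and 0% of genes. An unadjusted p under 0.05 was found there for 3 members, beside 2079 of all 18452 genes. DESeq2 called 1 member, which was Slc4a4, and limma-voom 0. In intervene minus model the change was called for 0 members, where 0.276% of genes were higher and 0.0759% lower. At an unadjusted p under 0.05 stood 2 members there, Aqp4 and Glul, beside 3145 of all 18452 genes. DESeq2 and limma-voom called 0 members. In intervene minus control 3 of 10 members (Aqp4, Aldoc and Acsbg1) had a more positive difference in libraries 4 to 6 and 1 (Slc1a2) a more negative one, where 9.54% of genes were higher and 8.37% lower. This count was 0 without control replicate 4 or 5, 1 without intervene replicate 2 or 4 and 2 without control replicate 2.

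The replicate sets themselves are compared as a description, with no test, since the division was found in these counts. In control 6 of 10 members did not overlap between the sets, where 52% of all genes did not. Aqp4, Gja1, Slc4a4 and Aldoc were lower in libraries 4 to 6, and Slc1a2 and Aldh1l1 higher. In model also 6 did not overlap, against 37.9% of genes: Aqp4 and Gja1 lower, and Slc1a2, Slc1a3, Aldh1l1 and Acsbg1 higher. In intervene 5 did not overlap, against 31.6% of genes, and all of them (Slc1a3, Aldh1l1, Aldoc, Glul and Acsbg1) were higher in libraries 4 to 6. The fitted set difference of Aqp4 was -0.93 in control, -0.89 in model and -0.37 in intervene, and that of Slc1a2 was 0.87, 0.48 and 0.08. Slc4a4 had -0.81 in control, -0.08 in model and -0.27 in intervene, and Aldh1l1 was higher in all groups, by 0.27, 0.58 and 0.51.

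**Figure D4:**
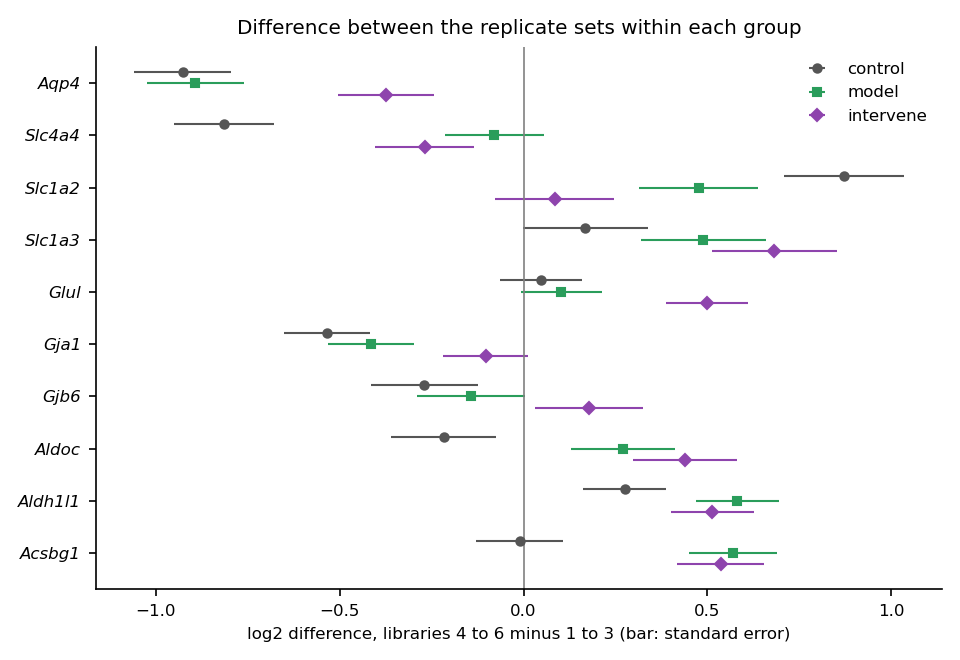
Fitted log2 difference between libraries 4 to 6 and libraries 1 to 3 for each gene (points, with standard errors as bars) in control, model and intervene. Aqp4 runs from -0.93 in control to -0.37 in intervene and Slc1a2 from 0.87 to 0.08, so for both the intervene point is nearest to 0.

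Levels of other cell types' markers are given for libraries 4 to 6, where 14.7% of all genes were higher and 11.2% lower in intervene than in control, and 3.66% higher and 2.05% lower than in model. For 10 oligodendrocyte markers the summed level was 14199 to 15742 CPM in intervene, 8521 to 12007 in model and 7049 to 7845 in control, and 9 of 10 were higher in intervene than in control. Of 10 thalamic neuron markers 8 were higher and 1 lower, with the sums given above, and 6 of 10 were higher in intervene than in model. For 10 pyramidal neuron markers the sums were 3765 to 7756 CPM in intervene, 6630 to 8764 in model and 8793 to 9439 in control, with 0 called by edgeR. Of 10 pan-neuronal markers 3 were lower in intervene than in control. Ependymal markers (8 of 8), choroid plexus markers (7 of 8), erythroid markers (4 of 5) and oligodendrocyte precursor markers (2 of 6) were higher in that comparison. Of 10 microglial markers 1 was higher and 1 lower, of 8 endothelial markers 1 was lower, and of 7 tested pericyte and smooth muscle markers 0 were called. In libraries 4 to 6 Gbx2 of the thalamic list and Kcne2 and Otx2 of the choroid plexus list were at 0 counts in at least 1 control library, and Tagln of the pericyte and smooth muscle list in at least 1 library of each group. The part of these cell types in the members' differences was not tested.

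Other astrocyte genes of fixed lists are given for comparison, from the same fit of libraries 4 to 6. Of 21 other astrocyte channels and transporters, 6 were higher and 1 lower in intervene than in control, and 3 higher and 1 lower than in model, beside 14.7% and 11.2% of all genes against control and 3.66% and 2.05% against model. Slc14a1, a urea transporter, rose by 1.61 ± 0.15 against control and 1.20 ± 0.15 against model (edgeR adjusted p = 1.21e-05 and 6.51e-04). Slc38a3, a glutamine transporter, was 0.26 ± 0.17 and 0.01 ± 0.17, and the calcium channel gene Trpv4 was 1.48 ± 0.71 and 1.62 ± 0.71, none of which passed (adjusted p = 0.262, 0.983, 0.139 and 0.188). The level of Trpv4 was low, at 1.11 to 1.96 CPM in control, 0.89 to 1.54 in model and 0.95 to 5.68 in intervene. Kcnj10, the Kir4.1 potassium channel that works beside Aqp4, was named after its values were seen. It rose against control by 0.52 ± 0.14 (adjusted p = 0.0121), and its difference from model was 0.46 ± 0.14 (adjusted p = 0.0633).

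Of 10 endfoot and Aqp4-anchoring genes 2 were higher and 2 lower in intervene than in control, beside 14.7% and 11.2% of all genes, with a median of -0.03. Against model 1 was higher, beside 3.66% of all genes. Hepacam, an adhesion protein of astrocyte junctions, rose by 0.54 ± 0.10 against control and 0.36 ± 0.10 against model (edgeR adjusted p = 0.00122 and 0.0431). Dmd, whose dystrophin products anchor Aqp4 at the endfoot, fell by 0.31 ± 0.10 against control (adjusted p = 0.0255). Lama2, a laminin of the basement membrane, was 0.21 ± 0.12 higher and did not pass (adjusted p = 0.197).

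Of 18 other astrocyte identity and metabolism genes 11 were higher and 0 lower in intervene than in control, and 3 were higher than in model. Over all genes 14.7% were higher and 11.2% lower against control, and 3.66% higher and 2.05% lower against model. Sox9, a transcription factor of astrocytes, rose by 1.27 ± 0.25 against control and 0.92 ± 0.25 against model (edgeR adjusted p = 0.00216 and 0.0431). Phgdh, an enzyme of serine synthesis, rose by 0.58 ± 0.09 against control (adjusted p = 5.39e-04). Pygb, a glycogen phosphorylase, was 0.28 ± 0.10 higher (adjusted p = 0.0558) and did not pass. Reactive astrocyte genes had 12 of 20 higher and 0 lower in both comparisons, beside the same shares of all genes. Their median was 1.04 against control and 0.99 against model, beside 0.34 and 0.14 for the homeostatic genes. Among them Cd44, a matrix receptor, rose by 1.72 ± 0.31 and Srgn, a proteoglycan core protein, by 1.01 ± 0.18 against control (edgeR adjusted p = 9.56e-04 and 8.11e-04). Timp1, a metalloprotease inhibitor, rose by 1.94 ± 0.46 against model (adjusted p = 0.0231), and its difference from control was 1.21 ± 0.44 (adjusted p = 0.0510). Its level was low, at 0.80 to 1.22 CPM in control, 0.36 to 0.84 in model and 1.48 to 2.77 in intervene.

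The members did not vary as 1 unit around the means of group and replicate set. Over the 18 libraries the Pearson correlations of the 45 gene pairs ran from -0.61 to 0.81 with a median of 0.17. They were highest for Aldoc with Acsbg1 (0.81), Aldh1l1 with Acsbg1 (0.78), Aqp4 with Gja1 (0.77) and Gja1 with Slc4a4 (0.73), and lowest for Slc1a2 with Aldoc (-0.61). Against the mean of the other 9 genes, Acsbg1 and Gja1 had 0.64 and Slc4a4 0.60, while Slc1a3 had -0.09 and Slc1a2 -0.23. Among 13475 genes outside the lists, Lhfpl3 (0.94), Amot (0.88), Hbegf (0.86), Slc25a34 (0.85) and Camk2d (0.85) were most like the mean of the members. All these values are descriptions: the genes share libraries, depth and tissue makeup.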

How the data were processed

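RNA-seq of mouse thalamus was analysed in 18 libraries, 6 each in control, model and intervene. The authors deposited raw counts and FPKM for 50559 genes. Per the submitters' processing notes, HISAT2, featureCounts and GRCm39 were used, without stated versions. FPKM as deposited equal count over gene length and column total in 18117 of 18117 genes counted in every library (relative tolerance 1e-06). FPKM were used for levels between genes and for ratios.

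The main test was that of edgeR 4.0.16, run on the counts in R 4.3.3 (robust quasi-likelihood F test, TMM, filterByExpr, 18452 genes). One fit had a mean per group, the other a mean per group and replicate set, both on 18 libraries. Benjamini-Hochberg adjustment ran over all genes tested, with a threshold of 0.05. A standard error is the difference divided by the square root of F. The fits were checked on counts simulated from each gene's mean over all libraries, with known differences added. Apart from these, the simulated counts held no difference between the replicate sets, so the check does not cover that division. Ratios were tested by 2-sided exact permutation over 924 arrangements. Alternatives used limma 3.58.1 and DESeq2 1.42.0, with pseudocounts of 1 and 0.1 on FPKM. Correlations used log2 CPM with a prior count of 2 and, for other genes, a mean CPM of at least 1.

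The members and lists were chosen with earlier results of these data known. Named beside the members were the 3 genes of each other astrocyte list with the lowest unadjusted p in intervene minus control over all libraries, and the 5 genes outside the lists most like the members. Lists of other cell types are given by counts. Counts did not have a stated strand setting, so reads of overlapping genes may be shared. Within groups, chi-square over degrees of freedom was at least 11.4 for every pair of libraries, so none repeated another.

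Same-numbered control and model libraries deviated together from their group means (r = 0.18 to 0.63, over 0.1 in 6 of 6 pairs). That met the rule used here for pairing, and intervene did not (-0.13 to 0.35 with model, -0.14 to 0.38 with control). Same-numbered libraries also share a replicate set, which these deviations keep. The r therefore cannot tell pairing by number from the division into sets. The lowest count of a member in a library was 1609, so counting error is small beside the spread between libraries.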

Additional observations from a re-analysis of the deposited data

Results flagged for a closer look

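For 4 genes the difference between intervene and control was called as changing between the replicate sets, by a test of the change itself in edgeR. The sets were found in these counts, so the p-values of this test are not independent of the division. The intervene minus control difference in libraries 4 to 6 exceeded that in libraries 1 to 3 by 0.55 on the log2 scale for Aqp4, by 0.66 for Aldoc and by 0.55 for Acsbg1, and for Slc1a2 the change was -0.79. Over the alternative runs the adjusted p ranged from 0.0159 to 0.129 for Aqp4, 0.0134 to 0.0794 for Aldoc, 0.0163 to 0.0896 for Acsbg1 and 0.00747 to 0.0619 for Slc1a2. All 4 calls were lost without control replicate 4 and without control replicate 5. Of these 4 genes, the call was lost in 12 of 19 alternative runs for Aqp4, 9 for Acsbg1, 6 for Aldoc and 4 for Slc1a2. For the same change, 5 of 10 oligodendrocyte and 8 of 10 thalamic neuron markers were called higher, beside 9.54% of all genes higher and 8.37% lower. The part of these cell types was not tested.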

How the results depend on the processing

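Alternatives were tallied for selected member differences, not for every member in every comparison. Of 1019 such values, 936 kept their direction and side of the threshold, 57 no longer passed, 17 newly passed and 9 changed sign. The sign changes all came from leaving out 1 library, for differences that did not pass: Slc1a2 and Slc1a3 in model minus control over all libraries (-0.194 to 0.0408 and -0.0385 to 0.148), Slc1a3 in intervene minus control 1 to 3 (-0.302 to 0.00371), Aqp4 in model minus control 4 to 6 (-0.0495 to 0.10) and Gjb6 in intervene minus control 4 to 6 (-0.00608 to 0.240).

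Leaving out 1 library, the members called ranged from 1 to 2 in intervene minus model 4 to 6, 3 to 6 in intervene minus control 4 to 6 and 0 to 5 for its change between sets. Genes called ranged from 158 (without model replicate 4) to 946 in intervene minus model 4 to 6, 2879 to 4347 in intervene minus control 4 to 6, and for the change between sets 0 to 13, 2 to 578 and 2094 to 3191 in model minus control, intervene minus model and intervene minus control. Over all libraries intervene minus control had 0 to 4. In libraries 1 to 3 model minus control had 0 to 4 and intervene minus control 0 to 1, and in libraries 4 to 6 model minus control had 0 to 1. The log2 ratio differences of model minus control were -0.214 to 0.0327 for Slc1a2 to Slc1a3 and -0.0694 to 0.0613 for Gja1 to Gjb6.

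In model minus control, intervene minus model and intervene minus control DESeq2 called 2, 2 and 73 genes over all libraries, 11, 1 and 57 in libraries 1 to 3, 221 and 1880 in the first 2 comparisons of libraries 4 to 6, and 217 (1 member) and 700 for their change between sets. Without a filter on low counts 4 genes were called in intervene minus control 1 to 3, 6 in model minus control 4 to 6, and 5 and 120 for the change in model minus control and intervene minus model. The limma fits on FPKM called 1 gene in intervene minus control over all libraries and in model minus control 1 to 3. They called 35 and 28 genes for the change in intervene minus model with pseudocounts of 1 and 0.1, and 1 gene in model minus control 4 to 6 with 0.1. With library totals that change had 16 genes. Members called in intervene minus model 4 to 6 were 1 with library totals, with either FPKM fit and with only the libraries compared. In intervene minus control the FPKM fit with 1 added called 3 members in libraries 4 to 6 and 2 for the change, as did library totals for the change. Only the libraries compared gave 1 gene in intervene minus control over all libraries, and 259 genes with 1 member, Slc4a4, in model minus control 4 to 6. The replicate set as a term gave 66 genes and 1 member, Aqp4, in intervene minus control. The cause of these differences was not tested.

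With the replicate number as a block, 87 genes were called in model minus control 4 to 6 and 1868 in intervene minus model 4 to 6. Slc1a2 passed in intervene minus model 4 to 6 (adjusted p = 0.0354), and Glul and Slc1a3 in intervene minus control 4 to 6 (0.0286 and 0.0470). The numbers do not pair intervene libraries by the rule used here, and 4 of 12 control and model libraries correlated best with their own number.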
